A study of Mus musculus with 9 samples.

Results

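Complex I of the respiratory chain was followed through the 45 gene symbols of the deposited table that begin with Nduf, out of 24421 symbols in all. By textbook composition 7 of them are core subunits, 29 are accessory subunits and 7 are assembly factors (Ndufaf1 to Ndufaf7). The other 2, Ndufa4 and Ndufa4l2, carry the name but are not counted as subunits here, since Ndufa4 is now placed in complex IV. Ndufb1 and Ndufaf8 were not analysed here. All 45 symbols passed the filter on low counts, among 15583 genes tested.

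The libraries were poly(A) RNA of tdTomato-positive proximal tubular epithelial cells sorted from the kidneys of C57BL/6 mice, with 3 mice in each of 3 groups and 1 library per mouse. All 9 mice carried SLC34a1GCE, a CreERT2 cassette in the Slc34a1 locus that is active in the proximal tubule, and the R26tdTomato reporter, and received 5 injections of 3 mg tamoxifen from 8 weeks of age. *db/m* mice, heterozygous for Leprdb, served as non-diabetic controls. *db/db* mice were diabetic and given vehicle, and *db/db*-dapa mice were diabetic and drank dapagliflozin at 1.5 mg/kg/day for 8 weeks. The sample labels name the tissue as kidney, and the sort is taken from the methods of the study.

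Complex I passes electrons from NADH to ubiquinone and pumps protons across the inner mitochondrial membrane. Its matrix arm carries the flavin and the iron-sulfur clusters, and its membrane arm holds the proton pumps, whose core subunits are encoded by mitochondrial DNA. Accessory subunits surround the core, and assembly factors help to build the complex without staying in it. The proximal tubule draws most of its ATP for sodium reabsorption from mitochondrial respiration.

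Total counts were 4817721 to 6571572 in *db/m*, 2733349 to 7635669 in *db/db* and 6981225 to 9033123 for *db/db*-dapa mice, and the 45 members took 0.607% to 1.185% of them. Levels are counts scaled by library size and given as CPM. The 12 proximal tubule markers were all detected and summed to 14000 to 14900 CPM in *db/m*, 15100 to 21300 in *db/db* and 17800 to 22000 for *db/db*-dapa mice. The 6 markers of the S3 segment summed to 3820 to 4540 CPM in *db/m* mice, but to 699 to 1810 in *db/db* and 1740 to 2150 for *db/db*-dapa mice. The 10 markers of distal tubule and collecting duct summed to 495 to 1510, 614 to 1090 and 512 to 643 CPM in these groups. The 1510 CPM were in *db/m* replicate 3, beside 734 and 495 CPM in the other *db/m* mice. Thick ascending limb markers (5 genes) summed to 1290 to 2100, 597 to 1690 and 795 to 983 CPM, and 10 macrophage and leukocyte markers to 218 to 501, 134 to 377 and 102 to 330 CPM. The 2100 CPM of thick ascending limb markers were also in *db/m* replicate 3. Single libraries stood apart in some other lists too. Erythroid markers (6 genes) summed to 1729 CPM in *db/db* replicate 2 and to 35.4 to 513 CPM elsewhere, and podocyte markers (5 genes) to 255 CPM in *db/db*-dapa replicate 1 and to 18 to 80.9 CPM elsewhere. Fibroblast and pericyte markers (6 genes) summed to 15.6 CPM in *db/db*-dapa replicate 1 and to 1.7 to 7.09 CPM elsewhere. Endothelial markers (6 genes) ranged from 33.8 to 155 CPM without a single library apart. Their highest sum, in *db/db*-dapa replicate 1, was beside 135 and 140 CPM in *db/db* replicates 1 and 2. None of the markers was at 0 in all mice, and their part in the results below was not tested. In RNA from sorted cells, fewer cells of a kind and less RNA per cell cannot be told apart.

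Subunit transcripts were abundant and assembly factors were scarce. Per kilobase of transcript, the mean over 9 mice had a median of 191 CPM for core subunits, 226 CPM for accessory subunits and 18.3 CPM for assembly factors. The highest subunits per kilobase were Ndufb8 with 462 CPM and Ndufb9 with 444 CPM, both of the membrane arm. Per kilobase of coding sequence the highest was Ndufa13, also of the membrane arm, with 938 CPM, and Ndufb8 had 563. The core subunit Ndufs1, the largest iron-sulfur subunit, had 106 CPM per kilobase. Ndufb2 had the lowest level of a subunit per kilobase, 19.7 CPM, on an annotated transcript of 4371 bases. Per kilobase of coding sequence Ndufb2 had 273 CPM, and the lowest subunit was then Ndufs5 with 113 CPM. Estimated counts of Ndufs5 were not whole numbers in 8 of 9 mice, and how reads that match several places were divided is not given in the sources used here, so that its level is uncertain. Such values occurred in 13 members in all, among them Ndufb4 and Ndufaf7 in 8 mice each and Ndufs1 in 5 mice.

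The 45 members mostly moved together from mouse to mouse. *db/m* replicate 3 was the highest of the 9 mice for 33 members and *db/db* replicate 3 the lowest for 37. Among the 36 subunits, the highest mouse exceeded the lowest mouse of the same group by a median of 1.65-fold in *db/m*, 2.03-fold in *db/db* and 1.29-fold in *db/db*-dapa mice. The 7 assembly factors varied less, by a median of 1.25-fold, 1.32-fold and 1.16-fold. The heat map of members by mouse shows both mice as columns that run through nearly every subunit.

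**Figure D1:**
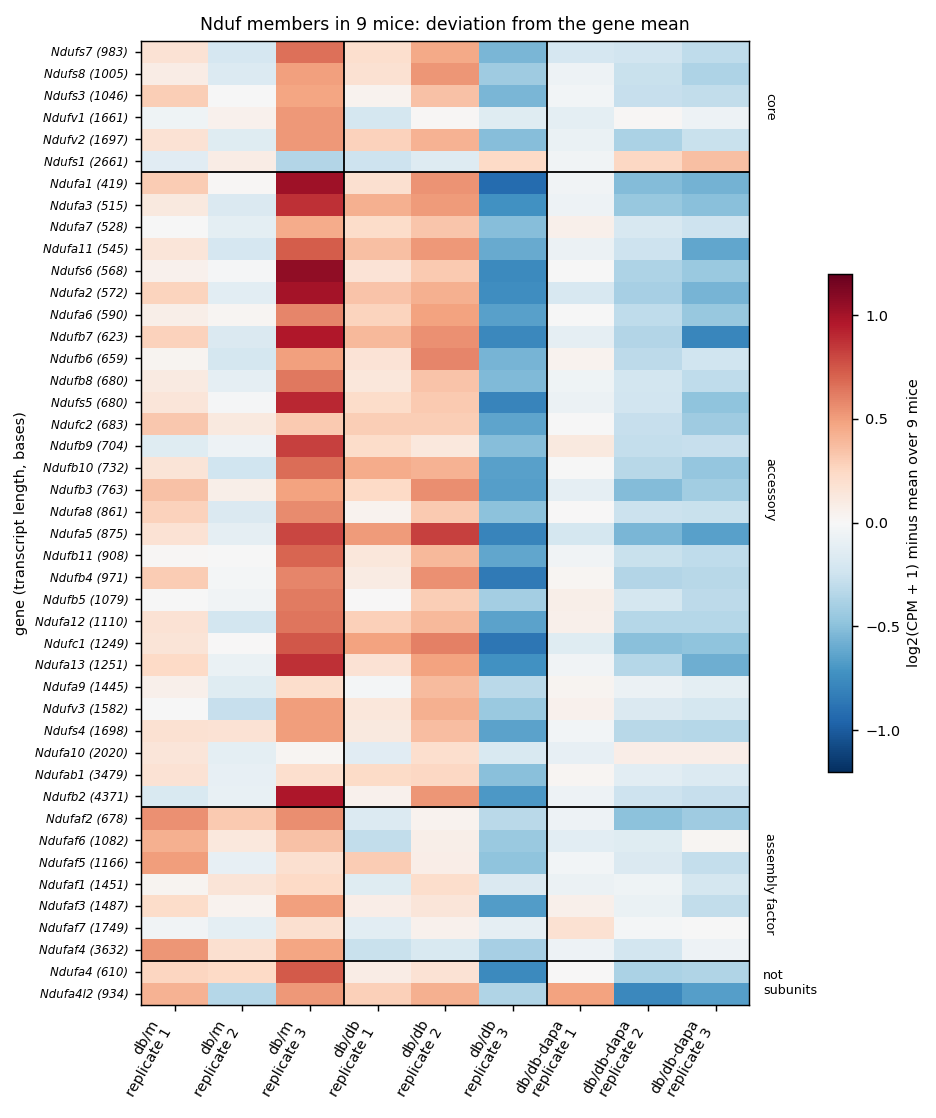
Each row is 1 of 44 members with its transcript length in bases and each column a mouse, and color gives log2(CPM + 1) minus the gene's mean over the 9 mice. Rows are grouped by class and ordered by length within it. *db/m* replicate 3 is high and *db/db* replicate 3 low for most subunits, whereas the core subunit Ndufs1 runs the other way.

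The class levels of core and accessory subunits differed by less than the spread between *db/db* mice. Core subunits had a mean log2(CPM + 1) of 8.28 ± 0.23 in *db/m*, 8.12 ± 0.28 in *db/db* and 8.02 ± 0.04 for *db/db*-dapa mice (SD over the 3 mice). Accessory subunits were at 7.67 ± 0.38, 7.44 ± 0.56 and 7.2 ± 0.18 in the same order (SD over the 3 mice). Assembly factors were at 5.04 ± 0.15 in *db/m*, 4.66 ± 0.22 in *db/db* and 4.67 ± 0.09 for *db/db*-dapa mice (SD over the 3 mice). For assembly factors each *db/m* mouse (5.11, 4.88 and 5.15) stood above each *db/db* mouse (4.70, 4.85 and 4.42) and each *db/db*-dapa mouse. The margin to *db/db* mice, 4.88 beside 4.85, was narrow. The core and accessory levels of *db/m* and *db/db* mice overlapped. Core levels of all *db/m* mice (lowest 8.09) also lay above those of all *db/db*-dapa mice (highest 8.07), by a narrow margin. Accessory levels of *db/m* mice (lowest 7.35) and *db/db*-dapa mice (highest 7.41) overlapped. Within a mouse, accessory subunits lay below core subunits by 0.61 ± 0.14 in *db/m*, 0.69 ± 0.29 in *db/db* and 0.82 ± 0.14 for *db/db*-dapa mice on this scale, and these values overlapped between groups.

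**Figure D2:**
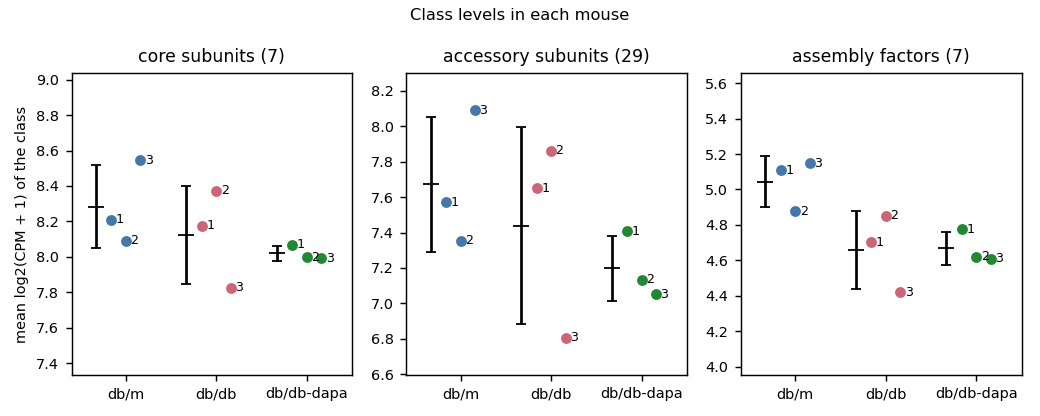
Mean log2(CPM + 1) of core subunits, accessory subunits and assembly factors in each mouse. Points are mice numbered by replicate, and the bars at the left of each group give the mean and SD of 3 mice. The axes span the same range but do not start at 0, and *db/db* replicate 3 is the lowest mouse in all 3 panels.

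The comparison of *db/db* with *db/m* mice sets untreated diabetic mice against non-diabetic controls. The groups differ in Leprdb genotype as well, so that diabetes alone cannot be told apart from it. Of the 45 members 44 were lower in *db/db* mice, with a median log2 fold change of -0.22, where 48.4% of all genes tested were lower and their median was 0.02. Only Ndufs1 was higher (51.6% of all genes). Nevertheless, edgeR called 0 of 45 members, where a call needed a change of more than 1 in either direction on the log2 scale as well as an adjusted p below 0.1, and it called 1.26% of all genes. DESeq2 and limma also called 0 members. At an unadjusted p under 0.05 there were 3 lower members (6.22% of all genes were lower at that level) and 0 higher ones (7.53%), and all 3 were assembly factors. The groups did not overlap for 4 members, Ndufa4, Ndufaf2, Ndufaf4 and Ndufaf6, which were lower in all *db/db* mice (8.14% of all genes), and for 0 members in the other direction (8.28%). The median of the core subunits was -0.16, that of the accessory subunits -0.21 and that of the assembly factors -0.39.

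The lower subunits in *db/db* mice rested on 2 libraries. Without *db/m* replicate 3 the median of the 45 members was -0.003 with 22 members higher, and without *db/db* replicate 3 it was -0.012 with 21 members higher. Scaling to the total count shifted the median of all genes to 0.125 in this comparison, and 13 members were then higher.

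Assembly factors had the smallest p-values of the members between *db/db* and *db/m* mice. Ndufaf4, which acts with Ndufaf3 in building the part of the matrix arm that binds ubiquinone, was at 93.7, 74.0 and 89.8 CPM in *db/m*, at 53.4, 56.8 and 48.8 CPM in *db/db* and at 61.7, 55.3 and 61.8 CPM for *db/db*-dapa mice. Every *db/m* mouse was above every diabetic mouse, treated or not. Its log2 fold change came to -0.70 in *db/db* versus *db/m* mice (standard error 0.16, adjusted p = 0.0803 by the quasi-likelihood test of edgeR, with p-values adjusted after Benjamini and Hochberg over all genes). It was the only member with an adjusted p under 0.1 (1.7% of all genes), and its change was short of the limit of 1 on the log2 scale. The adjusted p was 0.00195 with DESeq2 and 0.0641 with limma, and ranged up to 0.284 when *db/m* replicate 1 was left out. It stayed under 0.1 in 11 of 21 alternative fits, and in 1 of the 9 that left out a mouse. Treated versus untreated *db/db* mice had 0.17 (standard error 0.16, adjusted p = 0.859 by edgeR). Against *db/m* mice the *db/db*-dapa mice were at -0.53 (standard error 0.16, adjusted p = 0.167 by edgeR). There the adjusted p was 0.0323 with DESeq2 and 0.16 with limma, and under 0.1 in 2 of 21 alternative fits.

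Ndufaf2, a relative of the subunit Ndufa12 that acts late in assembly, was at 23.5, 19.7 and 23.5 CPM in *db/m*, 13.9, 16.2 and 12.4 in *db/db* and 15.05, 10.9 and 11.4 for *db/db*-dapa mice. Its log2 fold change stood at -0.65 (standard error 0.21, adjusted p = 0.212) in *db/db* and -0.84 (standard error 0.21, adjusted p = 0.112) in *db/db*-dapa versus *db/m* mice, both by edgeR. Ndufaf6, which acts early in assembly, was at 26.5, 21.3 and 25.1 CPM in *db/m*, 15.6, 20.4 and 14.0 in *db/db* and 17.7, 17.5 and 19.8 for *db/db*-dapa mice. Its log2 fold change in *db/db* versus *db/m* mice was -0.54 (standard error 0.20, adjusted p = 0.26 by edgeR). For both genes the highest diabetic mouse lay below the lowest *db/m* mouse, but neither passed the test in edgeR. For Ndufaf2 in *db/db*-dapa versus *db/m* mice the adjusted p was 0.0163 with DESeq2 and 0.135 with limma. It was under 0.1 in 3 of 21 alternative fits. Ndufaf2 and Ndufaf6 in this comparison, and the values of Ndufaf4 and Ndufaf6 in *db/db*-dapa versus *db/m* mice, were singled out after they were seen.

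The other assembly factors overlapped between *db/db* and *db/m* mice. Ndufaf7, a methyltransferase, was at 33 to 41.1 CPM in *db/m*, 32.6 to 37.0 in *db/db* and 35.1 to 40.6 for *db/db*-dapa mice, with -0.08 as the log2 fold change (standard error 0.16) in *db/db* versus *db/m* mice. Ndufaf1, Ndufaf3 and Ndufaf5 had values of -0.17, -0.39 and -0.25. Among 13 assembly factors and regulators of complex I outside the Nduf names, 11 were lower and 0 called, with a median of -0.32. Tmem126a had the smallest p of these, with -0.47 as the log2 fold change (standard error 0.20, adjusted p = 0.322 by edgeR). Ndufaf1, Ndufaf3, Ndufaf5 and Ndufaf7 were also named after their values were seen. Of the 6 S3 markers, whose sums are given above, 5 were lower and 1 higher in *db/db* mice (48.4% of all genes were lower). edgeR called 2 of them (1.26% of all genes). Whether this bears on the assembly factors was not tested.

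**Figure D3:**
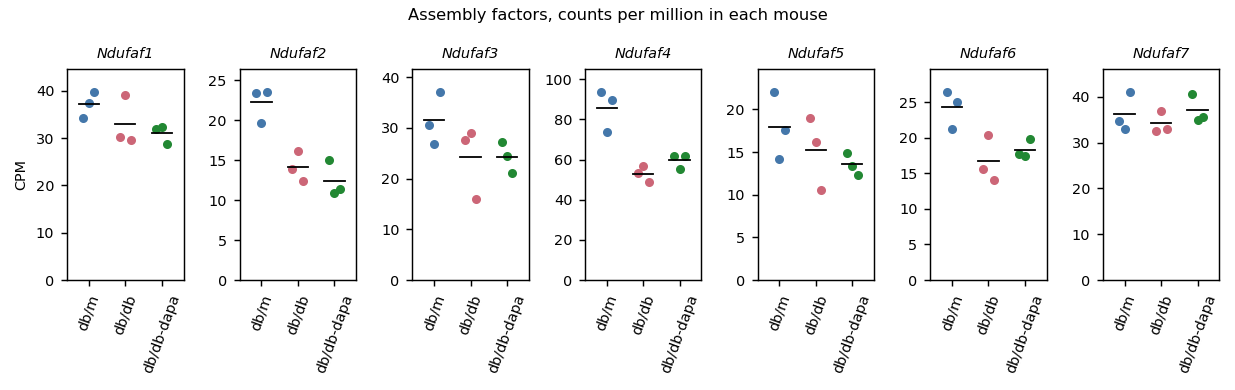
CPM of the 7 assembly factors in each mouse, with a line at the mean of each group. Axes start at 0 and differ between genes. For Ndufaf2, Ndufaf4 and Ndufaf6 all *db/m* mice lie above all *db/db* and *db/db*-dapa mice.

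Ndufaf4 lies on the plus strand of chromosome 4 (24898083 to 24905001 in GRCm38, also named mm10) and has 3 exons. The 250 bases before a RefSeq start were searched for 3 motifs of factors known to act on respiratory genes, on both strands. These were GCGC, any base, then TGCGC for NRF1, CCGGAAGT for ETS factors such as GABP, and TCAAGGTCA for estrogen-related receptors. A RefSeq window was found for 39 members. Of these 7 held the NRF1 motif, Ndufa5, Ndufa8, Ndufa11, Ndufaf4, Ndufb4, Ndufs5 and Ndufs6, a share of 17.9% beside 4.23% of 26996 genes with a window. The ETS motif was in 0 of 39 members and 3.23% of genes, and the third motif was in 0 members and 0.422% of genes. In 15 members the window held exon bases of a neighbouring gene, as it did with Ercc8 at Ndufaf2. Only 10 of the 39 members had a window without exon bases. The 20 bases after the start lay in a transcript of the gene in 31 of 41 windows. Of members with the NRF1 motif, Ndufa5 had exon bases throughout (250 of 250) and Ndufaf4 had 0. Exon bases numbered 186 at Ndufa8, 138 at Ndufs6, 88 at Ndufa11, 85 at Ndufb4 and 16 at Ndufs5. The motif shares may thus include exon sequence. The windows of Ndufaf4, the member with the smallest p, and of the core subunit Ndufs8 are shown 5′ to 3′ in the direction of the gene, since neither holds exon bases. Capitals mark the NRF1 match of Ndufaf4, which begins 113 bases before the start, and Ndufs8 had no match. They lie at chr4:24897833-24898082 (plus strand) and chr19:3912775-3913024 (minus strand) of GRCm38.p6.
Ndufaf4: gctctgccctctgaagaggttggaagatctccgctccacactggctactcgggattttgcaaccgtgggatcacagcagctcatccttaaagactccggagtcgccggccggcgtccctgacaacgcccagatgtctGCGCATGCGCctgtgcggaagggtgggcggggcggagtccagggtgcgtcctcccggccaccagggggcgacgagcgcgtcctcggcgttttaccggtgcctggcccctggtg
Ndufs8: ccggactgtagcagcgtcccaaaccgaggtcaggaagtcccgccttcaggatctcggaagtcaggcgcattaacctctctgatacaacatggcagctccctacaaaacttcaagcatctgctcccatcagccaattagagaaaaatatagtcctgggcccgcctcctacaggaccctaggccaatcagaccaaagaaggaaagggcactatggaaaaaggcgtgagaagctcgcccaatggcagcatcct

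Among core subunits in *db/db* versus *db/m* mice, Ndufv1 had the smallest p. Ndufv1, which binds NADH and the flavin, was at 412, 443 and 614 CPM in *db/m*, 369, 431 and 386 in *db/db* and 395, 432 and 409 for *db/db*-dapa mice. The groups overlapped, and the log2 fold change was -0.31 (standard error 0.18, adjusted p = 0.498 by edgeR), or -0.12 without *db/m* replicate 3. Ndufs1 was the only member higher in *db/db* mice. Ndufs1 lies on chromosome 1 from 63143596 to 63176833, with 19 exons and the longest coding sequence of all members, 2181 bases. It was at 254, 297 and 219 CPM in *db/m*, 234, 251 and 330 in *db/db* and 272, 332 and 359 for *db/db*-dapa mice. *db/m* replicate 3, the highest mouse for most subunits, was the lowest for Ndufs1. Its log2 fold change was 0.08 (standard error 0.20, adjusted p = 0.882 by edgeR) and turned to -0.09 when *db/db* replicate 3 was left out and to -0.02 when *db/m* replicate 3 was.

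Among accessory subunits, Ndufs6, a zinc-binding subunit of the matrix arm, had the smallest p. It was at 168, 161 and 340 CPM in *db/m*, 182, 203 and 95.4 in *db/db* and 162, 125 and 119 for *db/db*-dapa mice. The log2 fold change in *db/db* versus *db/m* mice was -0.48 (standard error 0.33, adjusted p = 0.564 by edgeR), and *db/m* replicate 3 alone had more than 203 CPM. Without that mouse the value was -0.05. Ndufa5, another subunit of the matrix arm, was at -0.02 (standard error 0.36, adjusted p = 0.989 by edgeR), and at 0.10 with scaling to the total count. The medians of the matrix arm and the membrane arm were -0.15 and -0.23. Ndufa4 was at 674, 663 and 939 CPM in *db/m*, 598, 634 and 330 in *db/db* and 564, 433 and 439 for *db/db*-dapa mice. It was lower in all diabetic mice, with -0.54 as the log2 fold change (standard error 0.26, adjusted p = 0.382 by edgeR). Ndufa4l2, a hypoxia-inducible relative of Ndufa4, was listed at 1 to 11.5 counts per mouse, too few for a comparison. The fitted value was -0.22 (standard error 0.89, adjusted p = 0.937 by edgeR).

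The comparison of *db/db*-dapa with *db/db* mice addresses the drug. Here 37 members were lower and 8 higher, with a median log2 fold change of -0.24, where 51.2% of all genes were lower and 48.7% higher and their median was -0.01. Again 0 of 45 members were called by edgeR, as were 0% of all genes. DESeq2 and limma also called 0 members, and 0 members had an unadjusted p under 0.05 (5.19% of all genes, 3.27% lower and 1.92% higher). The groups overlapped for each of the 45 members, whereas 5.29% of all genes were lower and 4.9% higher without overlap. Among the 8 higher members were the core subunits Ndufs1 and Ndufv1, the accessory subunit Ndufa10 and the assembly factors Ndufaf3, Ndufaf4, Ndufaf6 and Ndufaf7. The median was -0.25 for accessory subunits, -0.19 for core subunits and 0.02 for assembly factors. The count moved with single mice: 18 members were higher at a median of -0.02 without *db/db* replicate 2, and 5 were higher at a median of -0.47 without *db/db* replicate 3.

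Ndufa5, an accessory subunit of the matrix arm, had the lowest fold change. It lies on chromosome 6 from 24518666 to 24528013 and has 5 exons. It was at 237, 293 and 95.2 CPM in *db/db* and 143, 113 and 106 for *db/db*-dapa mice, and at 188, 154 and 289 in *db/m* mice. Treated mice lay below *db/db* replicates 1 and 2 and above *db/db* replicate 3. The log2 fold change was -0.79 (standard error 0.36, adjusted p = 0.854 by edgeR). Without *db/db* replicate 3 it was -1.12 with an adjusted p = 0.0833 by edgeR, and Ndufa5 was then the only member called, among 272 genes. Ndufs8, which carries iron-sulfur clusters toward ubiquinone, had the smallest p of the core subunits, with 207, 264 and 135 CPM in *db/db* and 175, 151 and 140 for *db/db*-dapa mice. The difference on the log2 scale was -0.38 (standard error 0.25, adjusted p = 0.854 by edgeR), and moved to -0.13 when *db/db* replicate 2 was left out and to -0.59 when *db/db* replicate 3 was. Ndufs1 had the highest value, 0.24 (standard error 0.20, adjusted p = 0.854 by edgeR). Ndufa4 was at -0.12 (standard error 0.26) and Ndufa4l2 at -0.71 (standard error 0.92), with adjusted p = 0.937 and 0.892 by edgeR, and Ndufa4 turned to 0.13 with the length offset described below.

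Treated mice had lower levels than *db/m* mice for 42 members, with a median log2 fold change of -0.48, where 51.5% of all genes were lower and 48.5% higher and their median was -0.02. edgeR called 0 of 45 members (1.05% of all genes), DESeq2 and limma called 0, and 0 members had an adjusted p below 0.1 in edgeR (1.31% of all genes). At an unadjusted p under 0.05 there were 9 lower members (8.39% of all genes were lower at that level) and 0 higher ones (9.77%). These were the accessory subunits Ndufa1, Ndufa2, Ndufa5, Ndufa13, Ndufb3 and Ndufb7, the assembly factors Ndufaf2 and Ndufaf4, and Ndufa4. For 16 members every treated mouse was below every *db/m* mouse, including 10 accessory subunits, 4 assembly factors, Ndufa4 and the core subunit Ndufs3 (13.7% of all genes), and for 0 members every treated mouse was above (14.4%). Without *db/m* replicate 3 the median was -0.27, with 42 members still lower.

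Ndufa2, a small accessory subunit of the matrix arm, was at 249, 189 and 412 CPM in *db/m* and 180, 156 and 140 for *db/db*-dapa mice. The difference on the log2 scale was -0.84 (standard error 0.33, adjusted p = 0.237 by edgeR), and -0.47 without *db/m* replicate 3. Ndufs3, a core subunit next to the ubiquinone site, was at 304, 245 and 344 CPM in *db/m* and 241, 203 and 201 for *db/db*-dapa mice, with -0.47 as the log2 fold change (standard error 0.23, adjusted p = 0.298 by edgeR). Ndufa5 and Ndufa4 were at -0.80 (standard error 0.36) and -0.66 (standard error 0.26), with adjusted p = 0.27 and 0.23 by edgeR. Ndufa4l2 was at -0.92 (standard error 0.89, adjusted p = 0.577 by edgeR). Ndufs1 was higher in treated mice, at 0.32 (standard error 0.20, adjusted p = 0.382 by edgeR), and its groups overlapped. The comparisons share mice, so that they are not independent of each other.

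Complex I genes are short, and short genes as a whole were lower in the same comparisons. The median transcript had 763 bases for accessory subunits, 1623 for core subunits and 1451 for assembly factors, against 2850 for all genes tested. All 1315 tested genes under 1000 bases, of which 23 were members, had median log2 fold changes of -0.21 in *db/db* versus *db/m*, -0.24 in *db/db*-dapa versus *db/db* and -0.47 in *db/db*-dapa versus *db/m* mice. The 23 members had -0.22, -0.30 and -0.58. For the 14101 tested genes of 1000 bases or more the medians were 0.04, 0.007 and 0.014, and for the 22 longer members they were -0.20, -0.12 and -0.38. The largest share of these longer members, 11, fell in the first length class above 1000 bases in the plot of fold change by length. There the medians were -0.23, -0.15 and -0.40 for members and -0.20, -0.11 and -0.33 for all 1521 genes of that class.

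Across the 45 members, Spearman's rho between the log2 fold change and transcript length was 0.165 in *db/db* versus *db/m*, 0.529 in *db/db*-dapa versus *db/db* and 0.535 in *db/db*-dapa versus *db/m* mice. With coding length, which leaves out the long untranslated ends annotated for Ndufb2, Ndufab1 and Ndufaf4, rho was 0.242, 0.671 and 0.769. With the length of the longest annotated transcript it was 0.04, 0.451 and 0.338, so that the size of the relation depended on the measure of length. These describe genes, which share libraries and are not independent replicates. In the last comparison the shortest member, Ndufa1 with 419 bases, had -0.87, and Ndufs1 with the longest coding sequence had 0.32. By transcript length Ndufaf4 stood apart from the relation, with -0.70 in *db/db* versus *db/m* mice on a transcript of 3632 bases. Its coding sequence is short, however, with 519 bases beside a median of 411 for accessory subunits.

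**Figure D4:**
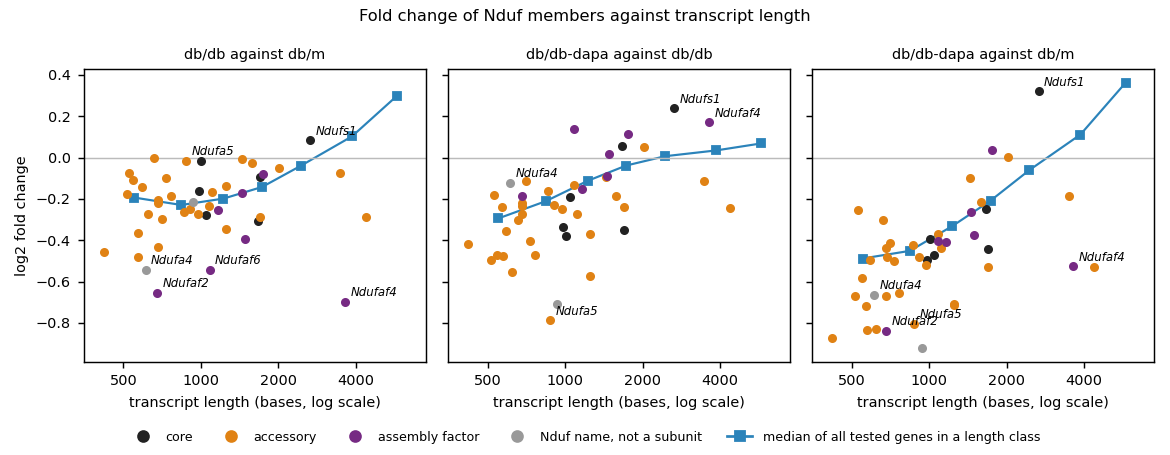
Log2 fold change against transcript length in bases (log scale) for 44 members, colored by class, in the 3 comparisons. Blue squares give the median of all tested genes in 7 length classes. The blue line is below 0 for short genes, most subunits lie below it in *db/db*-dapa versus *db/m* mice, where members of the shortest class had a median of -0.67 beside -0.49 for all genes, and Ndufaf4 lies far below it in *db/db* versus *db/m* mice.

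The same was seen mouse by mouse. The mean of the 36 subunits deviated from its average over 9 mice by 0.60 in *db/m* replicate 3 and by -0.57 in *db/db* replicate 3 (log2). A smooth curve of the deviation of all genes against length gave 0.35 and -0.35 at the lengths of the subunits in these mice, and 0.45 and -0.44 when it was drawn from genes with at least 50 CPM. In *db/db*-dapa replicates 1, 2 and 3 the subunits deviated by -0.04, -0.27 and -0.34, and the curve of all genes by -0.02, -0.20 and -0.23. The curve had the same sign as the subunits in each of the 9 mice. Members were not left out of the curves, so the curves are not independent of the subunits. Of the tested genes under 1000 bases, 23 of 1315 were members, and 20 of 286 of those with at least 50 CPM. What set this length trend in each library was not tested.

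**Figure D5:**
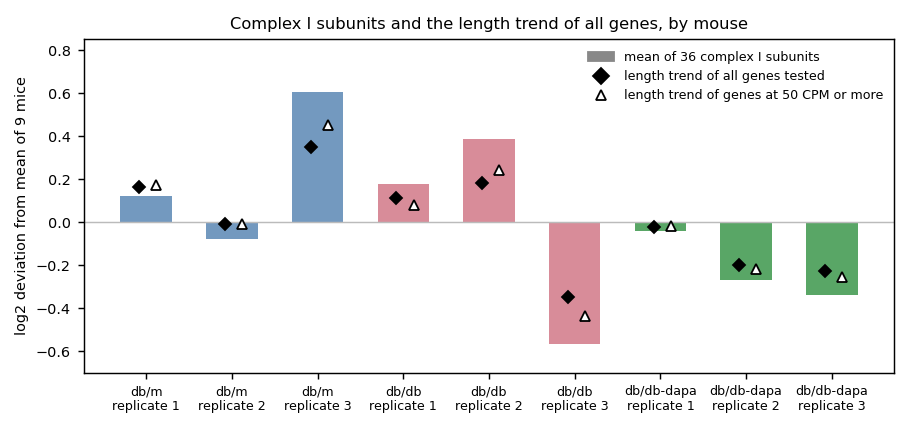
Bars give the mean log2 deviation of the 36 complex I subunits from their average over 9 mice. Diamonds give the length trend of all genes tested, read at the lengths of the subunits, and triangles that of genes with at least 50 CPM. The symbols follow the bars in sign in all 9 mice and are smaller in most of them, as with 0.35 beside 0.60 in *db/m* replicate 3.

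The length trend of each mouse, drawn with members included, was also taken into the edgeR fit as an offset. The medians of the subunits moved toward 0. The median of the 45 members was then -0.04 in *db/db* versus *db/m* mice, with 28 members lower, -0.03 in *db/db*-dapa versus *db/db* mice, with 28 lower, and -0.11 in *db/db*-dapa versus *db/m* mice, with 37 lower. Of all 15583 genes tested, 7778, 7791 and 8061 were lower with this offset, at medians of 0.001, 0 and -0.018 in the same order. The 36 subunits alone were at -0.02, -0.10 and -0.10. The offset left 29 of the 36 subunits lower in the last of these comparisons. The median of the assembly factors in *db/db* versus *db/m* mice went from -0.39 with 7 of 7 lower to -0.26 with 6 lower, and to -0.18 with 5 lower when the trend was drawn from genes with at least 50 CPM. With that last trend the median of all genes tested was 0.057 in *db/db* versus *db/m* mice. Ndufaf4 was at -0.76 (adjusted p = 0.0507 by edgeR with the offset), and Ndufaf2 and Ndufaf6 were at -0.40 and -0.35 (adjusted p = 0.405 and 0.441 by edgeR). The value of Ndufaf4 rests on its transcript length of 3632 bases, and an offset by coding length is not given here. Ndufv1 and Ndufs6 were at -0.17 and -0.24 in that comparison, and Ndufs8 was at -0.20 in treated versus untreated *db/db* mice. In treated versus *db/m* mice the offset gave -0.41 for Ndufaf2, -0.32 for Ndufa2, -0.13 for Ndufs3, -0.08 for Ndufaf6, -0.20 for Ndufa4 and -0.40 for Ndufa5. For Ndufa5 the offset gave 0.15 in *db/db* versus *db/m* and -0.55 in *db/db*-dapa versus *db/db* mice (adjusted p = 0.843 and 0.746 by edgeR).

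Of the other respiratory complexes, complex II had medians near 0, and 0 members of any of them were called in any comparison by edgeR, DESeq2 or limma. At an unadjusted p under 0.05, complexes II to V together had 1 lower member in *db/db* versus *db/m* mice, the complex IV assembly factor Cox11 (6.22% of all genes), and 0 higher ones (7.53%). In *db/db*-dapa versus *db/m* mice 1 member of complex III and 5 of complex IV were lower at that level (8.39% of all genes), and 1 of complex V was higher (9.77%). In *db/db*-dapa versus *db/m* mice the median was -0.04 for the 8 tested genes of complex II, -0.25 for 15 of complex III, -0.37 for 31 of complex IV and -0.40 for 21 of complex V. With the length offset these medians were 0.083, -0.055, -0.011 and -0.011, and complex II turned in sign. Cytosolic ribosomal proteins, short transcripts with no part in respiration, had a median of -0.51 in that comparison, with 75 of 75 lower, and -0.18 in *db/db* versus *db/m* and -0.32 in *db/db*-dapa versus *db/db* mice. With the offset their medians were -0.123 with 58 lower, -0.001 and -0.121 in the same order. Regulators of nuclear respiratory genes had medians of 0.03, 0.05 and 0.05 over 10 genes in the 3 comparisons, in the order *db/db* versus *db/m*, *db/db*-dapa versus *db/db* and *db/db*-dapa versus *db/m*. Among these, Ppargc1a, which encodes a coactivator of mitochondrial biogenesis, was at a log2 fold change of 0.70 in *db/db* versus *db/m* mice (standard error 0.20, adjusted p = 0.153 by edgeR). Over 12 genes of mitochondrial DNA maintenance and transcription the medians were -0.12, 0.07 and -0.11. Of these Polrmt, the mitochondrial RNA polymerase, was at 0.58 in *db/db* versus *db/m* mice (standard error 0.15, adjusted p = 0.113 by edgeR). Neither gene passed the test.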

How the data were processed

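RNA of sorted proximal tubular epithelial cells from 9 mice was sequenced by the authors from stranded poly(A) libraries as single-end reads. Per the submitters' processing notes, TopHat2 2.0.13, Bowtie2 2.2.3, SAMtools 0.1.19, Cufflinks 2.2.1 and mm10 were used. The deposited table is named as FPKM but holds estimated counts: 90.95% of its values are whole numbers and its columns have different sums. How these counts were made is not given in the sources used here, nor is the use of strand, and 0 columns of samples were left unused.

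Estimated counts were rounded, scaled by TMM and tested with edgeR 4.0.16 (quasi-likelihood, R 4.3.3) in 1 fit of all 9 mice with 3 group means and no pairing. Genes had at least 0.3 CPM in at least 2 mice. A call needed a change of more than 1 on the log2 scale and an adjusted p (Benjamini-Hochberg) below 0.1. Standard errors came from the F values. DESeq2 1.42.0, limma 3.58.1 on log2(CPM + 1), other scalings and filters, a replicate block, a length offset and fits without each mouse were alternatives. Lengths are those of the principal transcript in GENCODE M21 (GRCm38), matched for 45 of 45 members. The length trend was a lowess curve of log2 CPM deviations per mouse with a span of 0.3.

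Replicates are separate mice. Named members were, in each comparison and class, the member with the smallest p, and Ndufs1, Ndufa5, Ndufa4 and Ndufa4l2 throughout, and for other lists the gene with the smallest p. The members, classes and lists were chosen with earlier results of these data known, so that lists are described by counts and medians and not tested. The values of 1 member are not reported here singly or drawn in the plots by gene, but they are part of the counts and medians.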

Additional observations from a re-analysis of the deposited data

How the results depend on the processing

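The precision is that of 3 mice per group, with 1 count worth 0.113 to 0.34 CPM. The median of the 45 members kept its negative sign in the 3 comparisons under the other scalings, filters and tests, except at 0.013 in *db/db* versus *db/m* mice with the length offset from genes with at least 50 CPM, an alternative chosen after seeing the data, as was coding length. The same offset moved the median of all genes tested to 0.057 in *db/db* versus *db/m* mice. It was -0.07 in *db/db*-dapa versus *db/db* and -0.033 in *db/db*-dapa versus *db/m* mice. In *db/db*-dapa versus *db/m* mice the median moved to -0.108 with the length offset, -0.111 with the replicate block and length offset, and -0.064 with the offset from genes with at least 50 CPM. Leaving out single mice gave medians of -0.389 to -0.003, -0.473 to -0.02 and -0.601 to -0.265 in *db/db* versus *db/m*, *db/db*-dapa versus *db/db* and *db/db*-dapa versus *db/m* mice, and rho with length of -0.154 to 0.309, 0.444 to 0.58 and 0.404 to 0.59. The offset is built to remove the length trend of all genes, and rho over members in *db/db*-dapa versus *db/m* mice was then -0.006 with the length offset, 0.005 with block and offset and -0.18 with the offset from genes with at least 50 CPM, which gave -0.197 in *db/db*-dapa versus *db/db* mice.

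Genes called in the 3 comparisons numbered 197, 0 and 164 by edgeR, 363, 13 and 507 by DESeq2, and 84 to 230, 0 to 272 and 14 to 662 without single mice. In each comparison the highest of these came without *db/db* replicate 3. The lowest came without *db/m* replicate 1 in *db/db* versus *db/m* mice and without *db/db*-dapa replicate 2 in *db/db*-dapa versus *db/m* mice. Without a filter 275 genes were called in *db/db*-dapa versus *db/m* mice.

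After each gene's group mean was subtracted from log2(CPM + 1), mice of the same replicate number correlated at -0.323 to 0.563 between groups. These are correlations of what was left within groups, not of whole expression profiles. Mice of different numbers were not compared in this way, so these values cannot show whether the numbers pair mice. With a replicate block the medians were -0.24, -0.22 and -0.489 and the calls 185, 0 and 166, and block and length offset together called 1 gene in *db/db*-dapa versus *db/db* mice. The adjusted p of Ndufaf4 in *db/db* versus *db/m* mice was 0.142 with the block in edgeR.

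Some fold changes turned in direction. In *db/db* versus *db/m* mice Ndufa5 was at 0.1 with scaling to the total count, 0.014 with scaling to the 75th percentile, 0.147 with the length offset, 0.117 with block and offset and 0.194 with the offset from genes with at least 50 CPM, and Ndufa4l2 was at 0.118 and 0.036 with the last 2. In *db/db*-dapa versus *db/db* mice Ndufa4 was at 0.13, 0.131 and 0.179 with these 3 offsets, and Ndufaf2 at 0.002 with the last. Without single mice, Ndufs1 and Ndufa5 ranged from -0.089 to 0.2 and from -0.348 to 0.33 and Ndufa4l2 from -0.608 to 0.216 in *db/db* versus *db/m* mice, Ndufa4 from -0.349 to 0.046 in *db/db*-dapa versus *db/db* mice. The cause was not tested.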
